A study of Mus musculus with 4 samples.

Results

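Followed here were 10 genes of the ubiquitin-linked control of NF-kB: Tnfaip3 (A20), Tnip1, Tnip2, Tnip3, Tnfaip2, Traf1, Traf3, Birc2 (cIAP1), Birc3 (cIAP2) and Cyld. They were chosen by symbol with earlier results of these data known, so that counts of members set beside all genes are a description only. Each symbol matched 1 Ensembl ID, so that 10 of the 37681 gene IDs in the count tables were members. Messenger RNA was sequenced from cultured bone marrow cells; the mice were wild type on the C57BL/6 background, and the medium held fetal bovine serum and L929 supernatant, which supplies M-CSF. There was 1 library for each of 4 groups: cells with an shRNA against lncRNA-COX2 and 100 nM Pam3Cys4 for 5 h, cells with that shRNA and no stimulation, cells without shRNA and with the same Pam3Cys4, and cells with neither. Pam3Cys4 is a lipopeptide that activates TLR2 together with TLR1. The libraries without shRNA carry EV in their titles, which the labels do not explain, and the labels do not say how many animals or cultures stand behind a library.

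The 4 libraries held 47385277 to 65826838 gene reads. The labelled cell type was bone marrow cells, and all 8 macrophage markers examined were read in every library. Their summed level was 8107 and 6519 CPM with shRNA (Pam3Cys4 and unstimulated) and 8411 and 5800 CPM without it. Single macrophage markers differed between the shRNA states in both directions. In the same order, Mertk had 8.02 and 38.8 CPM with shRNA and 1.09 and 4.91 CPM without it. Fcgr1 had 357 and 163 CPM with shRNA and 86.7 and 112 CPM without it. Adgre1 was lower with shRNA, at 401 and 192 CPM against 663 and 349 CPM. Of the other lists, dendritic, B, T and NK, mast and erythroid cell markers summed to at most 2.36 CPM in any library, with Cd209a, Cd3e and Kit at 0 throughout. Granulocyte markers reached 12.0 CPM in the Pam3Cys4 library without shRNA, nearly all from Mmp8, with S100a9, Ly6g, Elane and Ltf at 0. Stromal and endothelial markers summed to 17.1 and 11.0 CPM with shRNA and to 6.91 and 6.12 CPM without it, mostly Kdr, with Col1a2, Pdgfra and Lepr at 0. Of 4 Y-linked genes, Ddx3y, Kdm5d and Uty had 320 to 1116 counts in the libraries with shRNA and 0 to 4 in those without it, while Eif2s3y had 0 and 0 counts with shRNA and 6 and 3 without it. Xist had at most 2 counts in any library. The shRNA comparisons below therefore set side by side libraries that differ in more than the shRNA label. With 1 library per group, this difference and the shRNA cannot be told apart in any of those comparisons.

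NF-kB signalling from TLR and TNF receptors runs through chains of ubiquitin. The TRAF and cIAP proteins help to build these chains, the TAK1 and IKK kinase complexes bind them, and A20 and CYLD edit or remove them. A20 acts with the TNIP proteins, which bind ubiquitin chains and A20, and several of these genes are themselves NF-kB targets, which makes them parts of a negative feedback loop in macrophages. TRAF3 and the cIAPs also hold the kinase NIK at a low level and so restrain the noncanonical branch of the pathway. Tnfaip2 shares the history of its name with A20, as a TNF-induced transcript, but its product is known for shaping the cell membrane and not as a ubiquitin enzyme.

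Promoters are printed for the 6 members whose transcripts rose with stimulation, as described below, and for Traf3, which holds a kappaB match and did not pass that test. The same is true of Cyld, whose promoter is not printed. RefSeq promoter windows of GRCm38.p6 were matched for all 10 members, 12 windows in all, each with 250 bases before and 50 after an annotated start. The counts were made on another build, NCBIM37, and these coordinates hold for GRCm38.p6 alone. The stretches before the start lie at chr10:19015411-19015660 (minus strand) for Tnfaip3, chr11:54962941-54963190 (minus strand) for Tnip1, chr6:65590148-65590397 (plus strand) for Tnip3, chr12:111442411-111442660 (plus strand) for Tnfaip2, chr2:34961773-34962022 (minus strand) for Traf1, chr9:7873171-7873420 (minus strand) for Birc3 and chr12:111166120-111166369 (plus strand) for Traf3. Capitals mark matches to the kappaB consensus, the family of sites bound by NF-kB, on either strand and with overlapping matches joined:
Tnfaip3: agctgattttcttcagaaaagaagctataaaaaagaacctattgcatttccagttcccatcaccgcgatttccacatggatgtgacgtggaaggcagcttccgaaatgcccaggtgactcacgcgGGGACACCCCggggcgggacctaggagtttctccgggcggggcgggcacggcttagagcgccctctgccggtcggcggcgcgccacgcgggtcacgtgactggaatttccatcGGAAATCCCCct
Tnip1: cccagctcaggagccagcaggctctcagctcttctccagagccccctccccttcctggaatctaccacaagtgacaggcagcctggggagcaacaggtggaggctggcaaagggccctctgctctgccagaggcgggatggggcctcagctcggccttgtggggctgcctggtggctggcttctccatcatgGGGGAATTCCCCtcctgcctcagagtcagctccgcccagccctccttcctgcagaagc
Tnip3: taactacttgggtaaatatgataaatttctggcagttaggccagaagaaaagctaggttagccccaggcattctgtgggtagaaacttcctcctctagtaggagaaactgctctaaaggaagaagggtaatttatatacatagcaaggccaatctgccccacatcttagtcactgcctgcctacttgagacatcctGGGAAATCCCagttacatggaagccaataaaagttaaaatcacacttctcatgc
Tnfaip2: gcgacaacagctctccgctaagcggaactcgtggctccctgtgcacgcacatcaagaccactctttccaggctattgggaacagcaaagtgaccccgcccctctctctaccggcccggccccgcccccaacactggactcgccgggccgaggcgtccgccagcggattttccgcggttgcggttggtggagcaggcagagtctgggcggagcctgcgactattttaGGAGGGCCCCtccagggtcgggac
Traf1: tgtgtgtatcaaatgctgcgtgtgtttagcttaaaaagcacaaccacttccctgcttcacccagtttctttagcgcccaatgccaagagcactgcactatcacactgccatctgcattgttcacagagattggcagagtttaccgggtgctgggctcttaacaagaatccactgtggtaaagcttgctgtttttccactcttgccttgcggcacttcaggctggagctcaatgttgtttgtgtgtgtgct
Birc3: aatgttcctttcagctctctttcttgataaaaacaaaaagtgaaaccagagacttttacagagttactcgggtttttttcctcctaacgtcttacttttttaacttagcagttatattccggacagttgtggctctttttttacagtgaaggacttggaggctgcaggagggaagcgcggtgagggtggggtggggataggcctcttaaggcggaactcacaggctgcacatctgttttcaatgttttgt
Traf3: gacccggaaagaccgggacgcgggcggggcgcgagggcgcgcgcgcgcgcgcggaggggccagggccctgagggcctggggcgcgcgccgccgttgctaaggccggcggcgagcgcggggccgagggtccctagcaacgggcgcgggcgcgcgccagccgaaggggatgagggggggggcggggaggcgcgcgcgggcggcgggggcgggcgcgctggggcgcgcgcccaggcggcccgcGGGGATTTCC

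The kappaB consensus was found in the windows of 6 of 10 members, Tnfaip3, Tnip1, Tnip3, Tnfaip2, Traf3 and Cyld, against 8.46% of 32851 mouse promoter windows of the same length. In the printed Tnfaip3 window matches began 125 and 12 bases before the start, and the other Tnfaip3 window held none. In Tnip1 overlapping matches began 58, 57 and 56 bases before the start. The match began 54 bases before it in Tnip3, 24 bases in Tnfaip2, 10 bases in Traf3 and 155 bases in Cyld. The narrower form GGGANTTTCC was matched in Cyld alone among the members and in 0.411% of all windows. The AP-1 motif TGANTCA was matched in Tnfaip3 (7.81% of all windows), and the interferon response motif GAAANNGAAA in no member (3.44%). TATAAA (13.6%) was matched in Tnfaip3, 225 bases before the start, and in Tnip3, 120 bases before it on the reverse strand. These are matches of letters in short windows, and binding was not measured. They did not divide the members by response: Traf3 and Cyld held a match and did not pass the test for stimulation below, while Traf1 and Birc3 rose and held none in these windows.

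**Figure D1:**
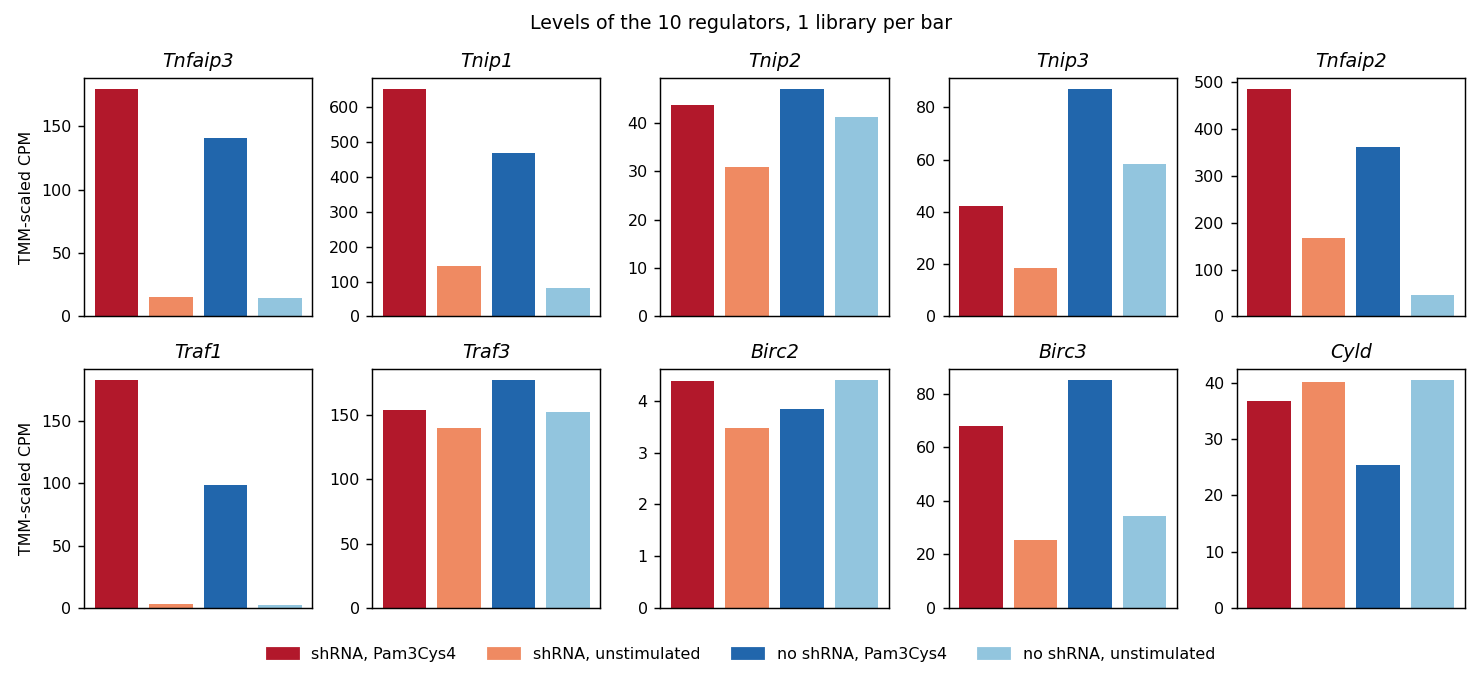
TMM-scaled CPM (counts relative to library size, scaled between libraries) of each member in each of the 4 libraries, 1 bar per library. In Tnfaip3, Tnip1, Tnfaip2, Traf1 and Birc3 both Pam3Cys4 bars stand above both unstimulated bars, while Tnip3 is lower in both shRNA libraries than in either library without shRNA.

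After Pam3Cys4 the transcripts of A20, of its partners TNIP1 and TNIP3, of Tnfaip2, of the adaptor TRAF1 and of the ligase cIAP2 were raised, whereas those of TNIP2, TRAF3, cIAP1 and CYLD were not raised beyond the test or were too low to be tested. Ratios were computed from TMM-scaled counts with an exact 95% interval, which covers counting error only, since there was 1 library per group. With shRNA 6 of 10 members were at least 2-fold higher after Pam3Cys4, against 6.3% of 9601 measured genes, and 0 were at least 2-fold lower (3.53% of genes). Without shRNA 5 of 10 were at least 2-fold higher, against 7.07% of 9555 genes, and 0 lower (6.51%). The median log2 ratio of all 10 members was 1.31 with shRNA and 0.94 without it, and that of all measured genes was 0.02 and 0.00. With library totals as the only scaling the medians of all genes moved by -0.13 and -0.18, and the share of higher genes among all those at least 2-fold apart was 51.5% with shRNA and 37.6% without it, in place of 64.1% and 52.1%.

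A test across genes was possible only by taking the 2 shRNA states as repeats of each stimulation state, in an additive model with shRNA and stimulation. In edgeR's quasi-likelihood test with Benjamini-Hochberg adjustment over 9559 genes, 6 members rose with stimulation, against 11.9% of genes, and 0 fell (10.9%). The count that fell was also 0 at an unadjusted p under 0.05 and with DESeq2. The test had 1 residual degree of freedom. Its error thus rests on how far the stimulation response differed between the shRNA states, together with values shared across genes. Its p-values do not cover the spread between separate cultures. Birc2 was below 5 CPM in all 4 libraries and was not tested, and Traf1 reached 5 CPM in its stimulated libraries alone, so that its presence among the tested genes already rests on a difference.

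Tnfaip3 encodes A20, which carries both a deubiquitinase and a ubiquitin ligase activity and shuts down signalling from TLR and TNF receptors. It had 179 CPM after Pam3Cys4 and 15.1 CPM unstimulated with shRNA, and 141 and 14.8 CPM in the same order without shRNA. The stimulated and unstimulated libraries stood far apart, and the shRNA states lay close to each other within each. Tnfaip3 was 11.9-fold higher after Pam3Cys4 with shRNA (95% counting interval 11.1 to 12.7) and 9.52-fold higher without it (8.83 to 10.3). In the additive test it rose by 3.41 on the log2 scale (standard error 0.15, adjusted p 0.00153).

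Tnip1 encodes ABIN-1, which binds ubiquitin chains and brings A20 to its substrates. It had 651 CPM after Pam3Cys4 and 145 CPM unstimulated with shRNA, and 467 and 82.7 CPM without shRNA. Both stimulated libraries lay above both unstimulated ones, and within each stimulation state the library with shRNA was the higher. The stimulation fold was 4.49 with shRNA (4.39 to 4.59) and 5.64 without it (5.46 to 5.83), and the additive estimate was a log2 rise of 2.33 (standard error 0.14, adjusted p 0.00358). A processed pseudogene, Gm12230, overlaps Tnip1 on the opposite strand and is listed in the count tables, and no source used here gives the strand setting of the counting.

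Tnip3 encodes ABIN-3, the third A20-binding member of the family. Its level was 42.1 CPM after Pam3Cys4 and 18.4 CPM unstimulated with shRNA, and 87.0 and 58.5 CPM without shRNA. Here the stimulation groups overlapped, since the stimulated library with shRNA was below the unstimulated library without it. The fold was 2.29 with shRNA (2.14 to 2.46) and 1.49 without it (1.42 to 1.56), and Tnip3 rose in the additive test by 0.88 on the log2 scale (standard error 0.19, adjusted p 0.0357).

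Tnip2 encodes ABIN-2, which also binds the kinase TPL-2 with its p105 partner. It had 43.8 CPM after Pam3Cys4 and 31.0 CPM unstimulated with shRNA, and 47.0 and 41.2 CPM without shRNA. Its stimulated libraries were above the unstimulated ones by a narrow margin, 1.41-fold with shRNA (1.33 to 1.50) and 1.14-fold without it (1.08 to 1.21). Tnip2 did not pass the additive test (log2 0.35, standard error 0.14, adjusted p 0.136), which Tnip1 and Tnip3 passed.

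Tnfaip2 had 485 CPM after Pam3Cys4 and 167 CPM unstimulated with shRNA, and 362 and 45.2 CPM without shRNA. The unstimulated library without shRNA stood lowest by far, and the 2 stimulated libraries were close to each other. The stimulation fold was 2.90 with shRNA (2.83 to 2.96) and 8.01 without it (7.67 to 8.36). Tnfaip2 rose in the additive test by 2.26 on the log2 scale (standard error 0.38, adjusted p 0.0209), with the largest standard error of the 9 members tested.

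Traf1 encodes a TRAF adaptor that lacks the RING domain of its relatives and forms complexes with TRAF2 and the cIAPs. It had 10015 counts after Pam3Cys4 and 232 unstimulated with shRNA, and 4988 and 135 counts without shRNA, or 182 and 3.48 CPM and 98.7 and 2.59 CPM. Traf1 had the widest gap between stimulated and unstimulated libraries among the members, in both shRNA states. The folds were 52.4 with shRNA (46.0 to 59.9) and 38.1 without it (32.1 to 45.6), and the additive estimate was a log2 rise of 5.49 (standard error 0.19, adjusted p 0.00139). Since Traf1 reached 5 CPM in the stimulated libraries alone, its place in that test already rests on the difference tested.

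Traf3, the adaptor and ligase that restrains NIK and is needed for type I interferon induction downstream of TLRs, was nearly level. It had 154 CPM after Pam3Cys4 and 140 CPM unstimulated with shRNA, and 177 and 152 CPM without shRNA. The stimulated libraries exceeded the unstimulated ones 1.10-fold with shRNA (1.07 to 1.14) and 1.16-fold without it (1.13 to 1.20), and the additive test was not passed (log2 0.18, standard error 0.11, adjusted p 0.281). The gene 4930595D18Rik overlaps Traf3 on the opposite strand in the annotation and is in the count tables.

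The cIAP genes are neighbours and close relatives. Birc3 encodes cIAP2, a RING ligase that ubiquitinates RIPK1 and NIK, and had 68.0 CPM after Pam3Cys4 and 25.5 CPM unstimulated with shRNA, and 85.0 and 34.4 CPM without shRNA. Its stimulated libraries lay above the unstimulated ones by similar folds, 2.67 with shRNA (2.52 to 2.82) and 2.47 without it (2.34 to 2.61), and it rose in the additive test (log2 1.36, standard error 0.13, adjusted p 0.00666). Birc2, the cIAP1 gene, had 241 counts after Pam3Cys4 and 231 unstimulated with shRNA, and 194 and 229 counts without shRNA. At 3.47 to 4.39 CPM it stayed below the filter, with a stimulation fold of 1.27 with shRNA (1.05 to 1.52) and 0.874 without it (0.718 to 1.06). Alignments to several places, 27.0 to 29.9% of all totals in the tables, were not assigned to genes. Whether this touched the levels of related genes such as Birc2 and Birc3 was not tested.

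Cyld encodes a deubiquitinase that removes lysine-63-linked and linear chains. It had 36.8 CPM after Pam3Cys4 and 40.2 CPM unstimulated with shRNA, and 25.4 and 40.5 CPM without shRNA. Cyld was the one member with both stimulated libraries below both unstimulated ones, with a fold of 0.917 with shRNA (0.865 to 0.972) and 0.629 without it (0.586 to 0.674). It did not pass the additive test for stimulation (log2 -0.40, standard error 0.18, adjusted p 0.161).

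In 7 of 10 members both stimulated libraries lay above both unstimulated ones, a pattern shown by 24.9% of the 9559 tested genes, and in 1, Cyld, both lay below (24.1%). Together the 10 transcripts took 0.171% of gene reads after Pam3Cys4 and 0.0597% unstimulated with shRNA, and 0.145% and 0.0524% without shRNA.

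**Figure D2:**
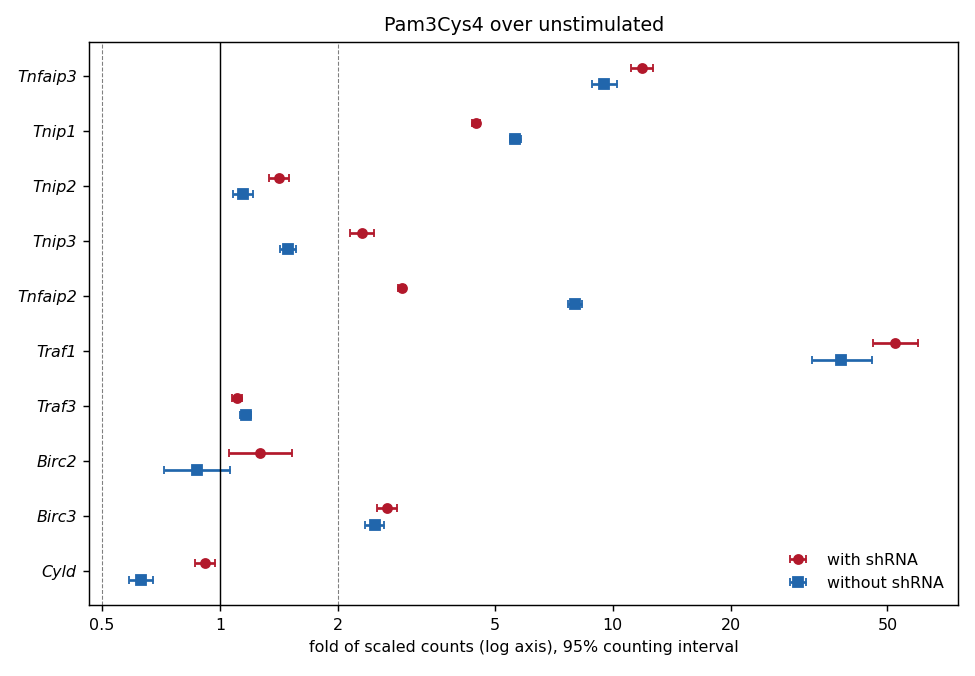
Fold of TMM-scaled counts, Pam3Cys4 over unstimulated, on a log axis for each member, with shRNA (circles) and without shRNA (squares); bars are 95% counting intervals, the solid line marks no difference and the dashed lines 2-fold. Traf1 lies at 52.4 and 38.1, Tnfaip2 has the widest gap between the states, 2.90 with shRNA and 8.01 without it, and Traf3 and Birc2 lie close to 1.

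With the shRNA against lncRNA-COX2, Tnip3 was lower in stimulated and in resting cells, Tnip1 and Traf1 were higher, and Tnfaip2 was at least 2-fold higher in resting cells alone, while Tnfaip3, the A20 gene, did not pass the test. After Pam3Cys4 0 of 10 members were at least 2-fold higher with shRNA (9.0% of 9702 measured genes) and 1, Tnip3, was at least 2-fold lower (5.58%). In unstimulated cells 1 was at least 2-fold higher with shRNA (Tnfaip2), against 7.0% of 9651 genes, and 1 was at least 2-fold lower, again Tnip3, against 4.82%. These shares are near those of all genes. The members' median log2 ratio was 0.27 after Pam3Cys4 and -0.07 in unstimulated cells, and that of all measured genes 0.05 and 0.02. In the additive test for shRNA 2 members rose, Tnip1 and Traf1, against 12.3% of genes, and 1 fell, Tnip3, against 8.66%.

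Tnip3 was 2.06-fold lower with shRNA after Pam3Cys4 (counting interval 1.96 to 2.17) and 3.18-fold lower in unstimulated cells (2.98 to 3.41). It was the one member whose shRNA libraries both lay below both libraries without shRNA, a pattern of 19.9% of tested genes. No member had both above (25.0%). A gene whose stimulation rise exceeds its shRNA rise cannot show that pattern, which holds for Tnfaip3, Tnip1, Tnfaip2 and Traf1. In the additive test Tnip3 fell by 1.36 on the log2 scale (standard error 0.19, adjusted p 0.012). Tnip1 moved the other way, 1.40-fold higher with shRNA after Pam3Cys4 (1.37 to 1.42) and 1.75-fold higher in unstimulated cells (1.69 to 1.82), and rose in the additive test (log2 0.64, standard error 0.14, adjusted p 0.034). The third TNIP gene, Tnip2, had shRNA folds of 0.932 after Pam3Cys4 (0.880 to 0.987) and 0.752 unstimulated (0.708 to 0.800), with an adjusted p of 0.253. The 3 TNIP genes thus gave a fall, a rise and no call with shRNA.

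Traf1 was 1.85-fold higher with shRNA after Pam3Cys4 (1.79 to 1.91) and 1.34-fold higher in unstimulated cells (1.08 to 1.67), where it was below 5 CPM. Its rise with shRNA in the additive test (log2 0.69, standard error 0.16, adjusted p 0.0473) was small beside the stimulation effect, and it did not pass with library totals as the only scaling (adjusted p 0.0587, with 0.00623 to 0.0466 under the other alternatives). Tnfaip2 was 1.34-fold higher with shRNA after Pam3Cys4 (1.32 to 1.37) and 3.71-fold higher in unstimulated cells (3.55 to 3.88). Its shRNA effect in the additive fit was not past the threshold (log2 1.15, standard error 0.37, adjusted p 0.0908), but it was with the DESeq2 Wald test (adjusted p 0.00317) and with no filter on low counts (0.00183). Tnfaip3 had folds of 1.28 after Pam3Cys4 (1.24 to 1.32) and 1.02 unstimulated (0.932 to 1.13). The unstimulated fold lay slightly below 1 under library totals and upper-quartile scaling, and the adjusted p of the additive test was 0.354.

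Birc3, Traf3 and Cyld did not pass the test for shRNA, and Birc2 was not tested. Birc3 was 1.25-fold lower with shRNA after Pam3Cys4 (1.20 to 1.31) and 1.35-fold lower in unstimulated cells (1.26 to 1.44), with an adjusted p of 0.0974. Traf3 was 1.15-fold (1.11 to 1.18) and 1.09-fold (1.06 to 1.12) lower in the same order, with an adjusted p of 0.345. Cyld had folds of 1.45 after Pam3Cys4 (1.35 to 1.55) and 0.993 unstimulated (0.937 to 1.05), and its adjusted p was 0.339. Birc2, with 194 to 241 counts per library, had folds of 1.14 (0.942 to 1.39) and 0.789 (0.654 to 0.952) in that order.

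**Figure D3:**
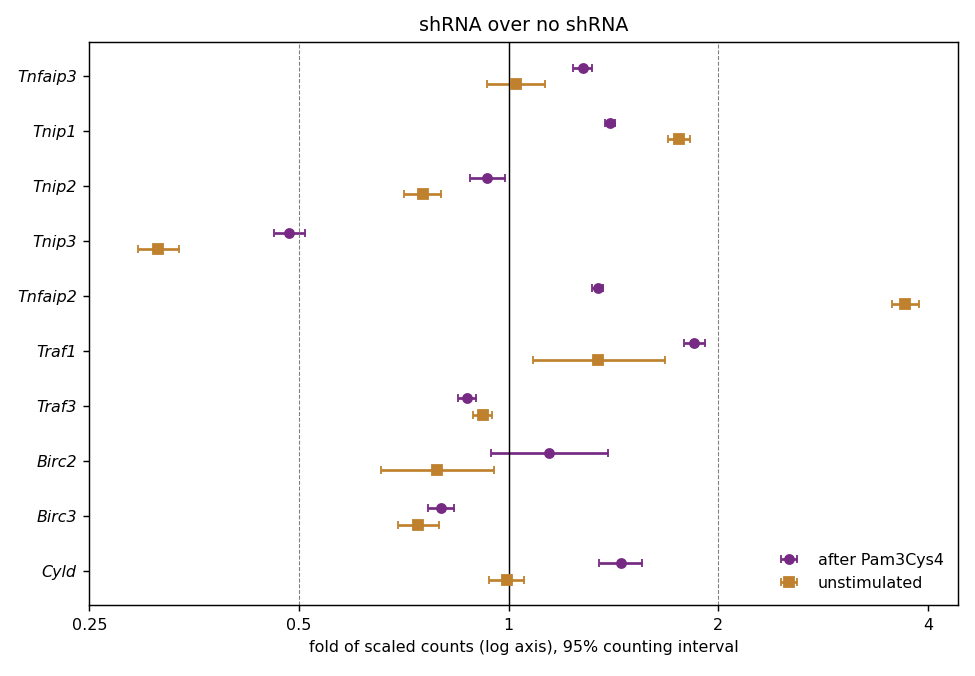
Fold of TMM-scaled counts, shRNA over no shRNA, on a log axis for each member, after Pam3Cys4 (circles) and unstimulated (squares); bars are 95% counting intervals, the solid line marks no difference and the dashed lines 2-fold. Tnip3 is the one member below 0.5 in both states (0.484 and 0.314), and Tnfaip2 lies at 1.34 after Pam3Cys4 and 3.71 unstimulated.

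The stimulation fold with shRNA was divided by the fold without it to see where the responses differed in size. It was at least 2-fold smaller with shRNA for 1 member, Tnfaip2, against 1.64% of 9857 genes, and at least 2-fold larger for 0 (1.94%). For Tnfaip2 the ratio of folds was 0.362 (delta-method 95% counting interval 0.345 to 0.380), which goes with its higher level in the unstimulated library with shRNA. Tnip3 (1.54, 1.42 to 1.68), Cyld (1.46, 1.33 to 1.60), Traf1 (1.37, 1.11 to 1.70), Tnfaip3 (1.25, 1.13 to 1.38) and Tnip2 (1.24, 1.14 to 1.35) had ratios above 1. Birc2, below the 5 CPM filter, had a ratio of 1.45 (1.11 to 1.88). Tnip1 (0.796, 0.765 to 0.828) and Traf3 (0.950, 0.911 to 0.991) had ratios below 1, and the interval of Birc3 (1.08, 0.995 to 1.17) held 1. Each ratio compares single libraries, and a difference in response cannot be told apart from spread between libraries.

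Among themselves, the members' profiles were compared as the Euclidean distance between log2(CPM + 0.5) values, centred on each gene's mean over the 4 libraries. The closest pair was Tnip2 and Traf3 (0.27), followed by Traf3 and Birc2 (0.31). The distance is not scaled for the size of change, so genes that change little, such as these, lie close together. Birc2 was also below 5 CPM in all 4 libraries. Of the genes that rose Tnip1 and Tnfaip2 were closest (0.76), followed by Tnip3 and Birc3 (1.11) and by Tnfaip3 and Tnip1 (1.18). Outside the list, the genes nearest to Tnfaip3 were Clec4e (0.28), Pou2f2 (0.37) and Fas (0.39). Those nearest to Traf1 were Ccl7 (0.35), Zc3h12a (0.67) and Arhgef3 (0.98). Birc3 lay closest to Relb (0.11), which encodes an NF-kB subunit, 4930503L19Rik (0.15) and Glipr1 (0.16), and Tnip3 to Abhd5 (0.18), Chst7 (0.19) and C130026I21Rik (0.23). Relb, for instance, had 47.6 CPM after Pam3Cys4 and 18.2 CPM unstimulated with shRNA, and 58.8 and 22.1 CPM without it. Each distance is a description over 4 libraries.

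In 5 lists with 53 other genes of the same signalling steps, 46 were tested. With stimulation 8 of them rose and 1 fell, against 11.9% and 10.9% of all tested genes, and with shRNA 6 rose and 2 fell, against 12.3% and 8.66%. Most list genes, like most of all tested genes, were not called. The lists' median log2 fold was 0.21 for stimulation and 0.12 for shRNA, against 0.00 and 0.04 over all tested genes.

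One list held A20 partners and the TANK group, which links TRAFs to the IKK-related kinases. Of its 8 tested genes 4 rose with stimulation, against 11.9% of all tested genes: Ikbke, which encodes IKK-epsilon (log2 2.51, standard error 0.16, adjusted p 0.00391), Tank (1.48, 0.14, 0.00702), Rnf11, a RING protein of the A20 complex (0.65, 0.15, 0.0443), and the kinase gene Tbk1 (0.62, 0.14, 0.0393). Ikbke had 329 CPM after Pam3Cys4 and 67.9 CPM unstimulated with shRNA, and 209 and 30.9 CPM without shRNA, and so was higher with shRNA in each state. With shRNA 3 of the 8 rose, against 12.3% of all tested genes, Ikbke (log2 0.89, adjusted p 0.0221) and the A20 partners Itch, a HECT ligase (0.54, 0.0416), and Tax1bp1, a ubiquitin-binding adaptor (0.50, 0.048). Rnf11 and Tbk1 for stimulation, and Itch and Tax1bp1 for shRNA, did not pass with library totals as the only scaling (adjusted p 0.06, 0.0638, 0.067 and 0.0731).

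Of 10 tested TRAF, IAP and IAP-binding genes outside the members, 1 rose and 1 fell with stimulation, against 11.9% and 10.9% of all tested genes. Naip2, a cytosolic sensor of bacterial secretion systems whose family has near-identical copies, rose with stimulation by 1.01 on the log2 scale (standard error 0.15, adjusted p 0.017). Traf4 fell with stimulation (log2 -0.84, adjusted p 0.0234) and with shRNA (log2 -0.97, adjusted p 0.0144). Its 4 levels were 7.00 CPM after Pam3Cys4 and 12.9 CPM unstimulated with shRNA, and 14.2 and 24.5 CPM without shRNA. Traf2 and Traf6, the ligases of TNF and TLR signalling, were tested and not called for either effect.

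Among the 5 tested genes that assemble or remove linear ubiquitin chains, 0 passed for stimulation at an adjusted p of 0.05 in edgeR's test, against 11.9% of all tested genes that rose and 10.9% that fell, and with so few genes the count of 0 does not set the list apart. At an unadjusted p under 0.05 there were 2, Rnf31 and Spata2, and DESeq2 called 1, Rnf31. Rnf31, the catalytic subunit HOIP, rose with shRNA (log2 1.12, standard error 0.14, adjusted p 0.00811). Rnf31 had 99.3 and 63.0 CPM with shRNA (Pam3Cys4 and unstimulated) and 41.6 and 32.0 CPM without it. Of the 10 genes of the RIPK, TAK1 and IKK kinases and their complexes, 2 rose with stimulation and 1 fell with shRNA, against 11.9% and 8.66% of all tested genes. Ripk2, which transmits NOD receptor signals, rose with stimulation (log2 1.23, adjusted p 0.0091). Chuk, which encodes IKK-alpha, rose with stimulation (log2 0.57, adjusted p 0.0395, but 0.0758 with library totals alone) and fell with shRNA (log2 -0.60, adjusted p 0.0366).

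The last list held 13 other tested genes linked to ubiquitin in NF-kB signalling. Of these 1 rose with stimulation and 2 with shRNA, against 11.9% and 12.3% of all tested genes. N4bp1, an inhibitor of NF-kB signalling, rose with stimulation by 0.86 on the log2 scale (standard error 0.18, adjusted p 0.0357) and with shRNA (log2 1.06, adjusted p 0.0216). Peli2, a Pellino ligase that acts on IRAK1, had the largest shRNA difference of all 5 lists (log2 3.74, standard error 0.37, adjusted p 0.00425). Peli2 had 912 and 2543 counts with shRNA (Pam3Cys4 and unstimulated) and 101 and 93 counts without it. It reached 5 CPM in the shRNA libraries alone, so that its presence among the tested genes already rests on that difference.

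**Figure D4:**
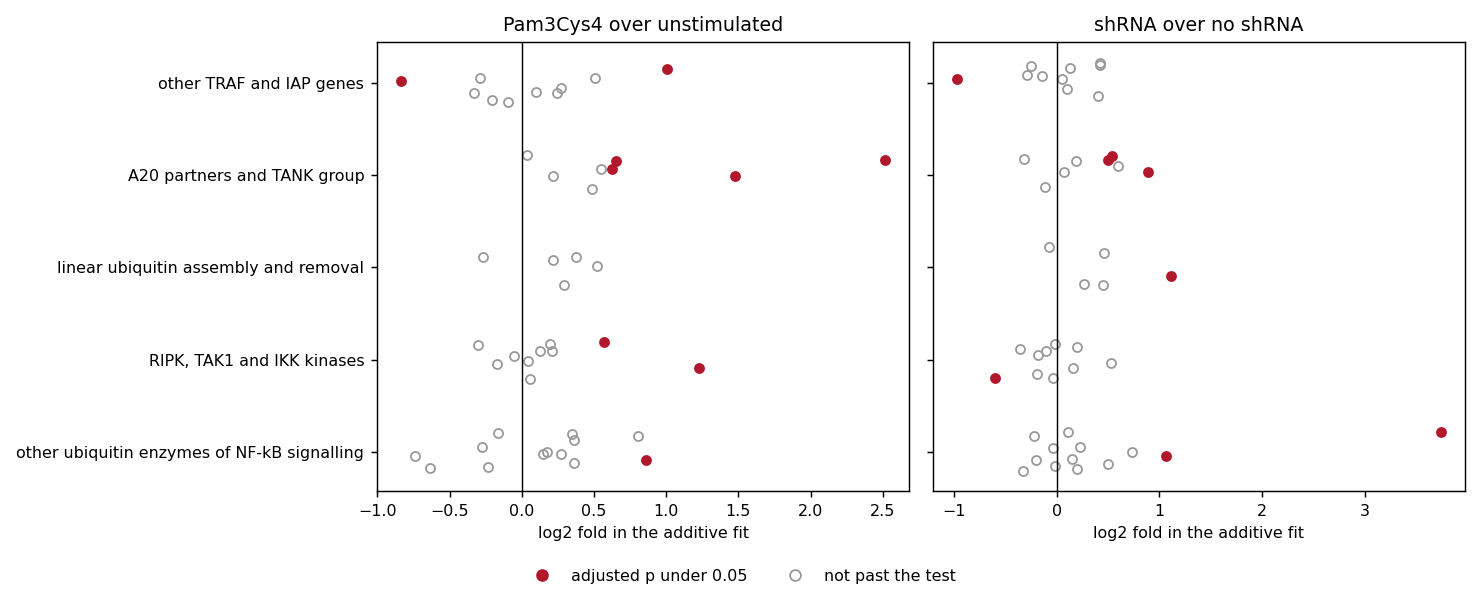
Log2 fold in the additive fit for the tested genes of 5 pathway lists, Pam3Cys4 over unstimulated (left) and shRNA over no shRNA (right); each point is a gene, filled where the adjusted p of edgeR's quasi-likelihood test is under 0.05, and the vertical position within a row has no meaning. Ikbke (2.51) lies farthest to the right for stimulation and Peli2 (3.74) for shRNA.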

How the data were processed

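The deposited values are read counts per Ensembl gene, and per the submitters' processing notes they were made by the authors with CASAVA 1.8, TopHat and HTSeq on NCBIM37. Not given in the sources used here are the TopHat and HTSeq versions, the annotation and whether counting used strand. HTSeq summary lines, 32.5 to 34.4% of totals, were left out of library sizes and tests. Symbols came from GENCODE vM21 names, matching 32642 of 37681 IDs. Counts were scaled with TMM factors of 0.924 to 1.10 (edgeR 4.0.16, R 4.3.3). Ratios used an exact conditional binomial 95% interval, and a call needed a ratio of at least 2 or at most 0.5, an interval without 1, and 5 CPM or more in the higher library. Ratios of folds needed 10 counts in each library. The additive edgeR quasi-likelihood test took genes that reached 5 CPM in 2 or more libraries. Its common coefficient of variation (0.137, termed biological in edgeR) rests on differences in response between the shRNA states and not on replicates. Calls used a Benjamini-Hochberg adjusted p under 0.05. Scripts were tested on simulated counts. Alternatives were other scalings, no filter, robust dispersion and DESeq2 1.42.0.

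Named genes were the 10 members, list genes past the additive test (at most 4 per list and effect) and the 3 nearest profiles of 4 members. Traf2, Traf6 and the single macrophage markers were named after their values were seen. Members and lists were chosen with earlier results of these data known. The lists of markers covered macrophage, dendritic, granulocyte, B, T and NK, mast, stromal and endothelial, erythroid and sex-linked genes. The targeted RNA is not reported here.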

Additional observations from a re-analysis of the deposited data

Results flagged for a closer look

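In Birc2 and Cyld single-library folds pointed in opposite directions in the states of the other factor, and the difference was not tested against replicates. Birc2 had a stimulation fold of 1.27 with shRNA and 0.874 without it, and an shRNA fold of 1.14 after Pam3Cys4 and 0.789 in unstimulated cells. The counting interval of Birc2 held 1 for stimulation without shRNA (0.718 to 1.06) and for shRNA after Pam3Cys4 (0.942 to 1.39). The 4 libraries held 194 to 241 Birc2 counts. Cyld had an shRNA fold of 1.45 after Pam3Cys4 and of 0.993 in unstimulated cells, where the interval held 1.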

How the results depend on the processing

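Of 60 alternative counts of members, 59 stayed within 1.5 times the reported count. The exception was the count that rose with shRNA, which was 1 in place of 2 with library totals as the only scaling, since Traf1 was then lost. That count was also 3 with DESeq2 and with any counted gene tested, since Tnfaip2 was then added, which is just at the limit of 1.5 times. The 6 members that rose with stimulation were past the test under all 5 alternatives run. Of 150 member log2 ratios under other scalings, 111 stayed within the counting interval of the reported value, and none of the called ones changed sign. Without a filter on low counts, all genes at least 2-fold higher and lower numbered 1289 and 892 for Pam3Cys4 with shRNA, 1332 and 1242 without shRNA, 1610 and 1449 for shRNA after Pam3Cys4 and 1318 and 1482 in unstimulated cells, in place of 605 and 339, 676 and 622, 873 and 541, and 676 and 465. Ratios of folds at least 2-fold larger and smaller were then 517 and 451 in place of 191 and 162. In the additive test, genes that rose and fell numbered 2013 and 1857 for stimulation and 2170 and 1874 for shRNA with any counted gene tested, in place of 1138 and 1045, and 1171 and 828. Genes that fell were 2023 for stimulation and 1260 for shRNA with library totals alone, and 1320 for shRNA with DESeq2. The causes of these shifts were not tested. No paired analysis was possible because each group has 1 library and the labels give no replicate numbers to pair by; the additive test compares stimulation within shRNA states, and shRNA within stimulation states. With 1 library per group, leaving a library out leaves no test. Low counts limit Birc2 (194 to 241) and unstimulated Traf1 (232 with shRNA and 135 without it) among the members, and the spread between cultures cannot be had from these libraries.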
